A study of Oryza sativa with 12 samples.

Results

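Roots of the rice varieties Bala and Azucena were compared after both had grown under the same arsenate exposure. The comparison rests on 6 of the series' 12 arrays, the 3 Bala arrays and the 3 Azucena arrays at 1 ppm arsenate, which were taken by their labels and paired by replicate number. All 57258 probe sets other than the array's control sets entered, of which 28461 were bright enough to test. They held 15638 genes counted with 1 probe set each, the one with the highest mean signal.

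Seedlings stood in hydroponic solution for 7 days, 12 hours of each day in light, either with arsenate at 1 ppm (13.3 uM) or with none. Each array held RNA of 100 mg of root pooled from 4 plants of a single pot, of which 5 ug was labelled. The 4 groups were Azucena arsenate and Bala arsenate, compared here, and Azucena control and Bala control, which carried no arsenate and are read beside them. The 3 replicates were separate experiments grown at different times, each with all 4 groups harvested together, and the number of arrays limits the precision.

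Arsenate resembles phosphate and enters root cells through phosphate transporters. In the cell it is reduced to arsenite, which binds thiols, and plants detoxify it with glutathione and the phytochelatins made from glutathione. Arsenite also moves through the silicon channels and exporters of the rice root. Bala is known as an arsenate-tolerant upland variety of the indica type and Azucena as a sensitive tropical japonica variety, and the labels cite a tolerance gene on chromosome 6.

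The probes of this array follow mostly Japonica sequence. A lower signal in 1 variety can therefore go with less RNA or with sequence that its probes match less well, and in these data these cannot be told apart. In pooled root tissue, fewer cells of a type and less RNA per cell cannot be told apart either. Values are signals on a linear scale, differences are log2(signal + 2.1) of Bala minus Azucena with their standard error (SE), and a difference passed the test at a limma p below 0.05 after Benjamini-Hochberg adjustment over all probe sets tested. A signal of 9.4, the median of all signals, was the filter value, and folds that rest on lower signals depend on the added constant.

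Across probe sets, r was 0.916 to 0.974 for pairs of arrays within a group and 0.841 to 0.874 for a Bala arsenate with an Azucena arsenate array. All 13 root markers were tested and their summed signal overlapped between the varieties under arsenate, from 5753 to 6998 in Azucena and from 5259 to 7212 in Bala, with 2 of the 13 past the test as higher in Bala. The summed signal of the 12 tested green shoot markers was 392.6, 416.8 and 245.6 in the Azucena arsenate arrays and 721.3, 543.1 and 4439.9 in the Bala arsenate arrays, with 4 of the 12 markers below 9.4 on all 3 Azucena arrays and none on all 3 Bala arrays. All 12 read higher in Bala, by a median of 1.42, and LP02 passed the test (1.92), a call lost without any of 10 single arrays and without the block. The ratio of the 3′ to the 5′ GAPDH control signal lay between 8.86 and 23.8 in Azucena arsenate and between 3.53 and 3.78 in Bala arsenate, whereas the varieties overlapped in this ratio for actin, at 5.15 to 8.45 in Azucena and 6.82 to 8.59 in Bala, and for cyclophilin, at 2.46 to 3.23 in Azucena and 2.08 to 2.90 in Bala. The part of these measures in the results was not tested.

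Under arsenate 1794 genes (11.5%) differed between the varieties. Of these 754 (4.82%) were higher in Bala and 1040 (6.65%) were lower. Each kept its sign in all 3 experiments, which is not separate support, as the calls rest on the same arrays. The higher genes included 222 with a 4-fold or larger difference and 34 with a 16-fold or larger one, and the lower genes 404 and 129. Counted over probe sets, 3779 (13.3%) passed, 1578 higher and 2201 lower. The median difference of all genes was -0.02. The count of genes fell to 1067 without Bala arsenate 1, 1150 without Bala arsenate 2 and 1137 without Azucena arsenate 2, and to 746 and 666 without the whole of experiments 1 and 2. With only the 6 arrays compared in the fit it was 1097, and 29 of the 87 named genes called under arsenate lost their call.

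Without arsenate 1903 genes (12.2%) differed, 802 (5.13%) higher and 1101 (7.04%) lower in Bala. Which direction held more of these genes depended on the scaling: with each array centred on its median, 54.9% of the genes called without arsenate were higher in Bala, against 42.1% as deposited. Under arsenate the share was 32.6% against 42.0%. In both conditions and in the same direction 1028 genes passed, 358 higher and 670 lower, which was 57.3% of the genes called under arsenate and 54.0% of those called without it. Another 6 genes passed in both with opposite signs. Of the 760 genes called under arsenate but not without it, 630 had the same sign in the control arrays. The difference between the contrasts passed in 11 genes (0.0703%), 10 of which were also called under arsenate, and 1509 genes had an unadjusted p under 0.05 for it.

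**Figure D1:**
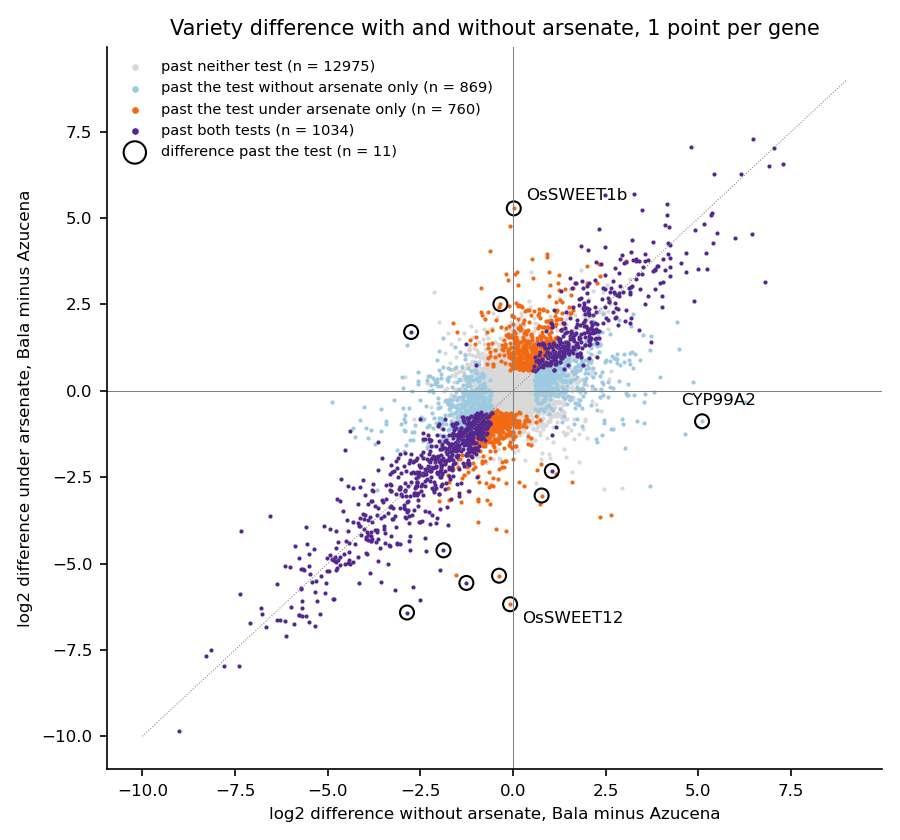
Each point is 1 of 15638 genes, with the Bala minus Azucena difference (log2) without arsenate on the horizontal axis and under arsenate on the vertical axis, and circles mark the 11 genes whose contrasts differed by the test. Most of the 1034 genes called in both lie near the dotted line of equal differences, while OsSWEET1b (5.28) and OsSWEET12 (-6.18) differ under arsenate and lie near 0 without it.

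Sugar transporters of the SWEET family, which let sugars pass through membranes along their gradient, held 2 of the 11 genes whose contrasts differed. OsSWEET1b, on chromosome 5, read 110.1, 104.5 and 117.8 in the Bala arsenate arrays and 0.4, 1.4 and 0.7 in the Azucena arsenate arrays, and at most 1.0 in any control array. Only the Bala arsenate arrays stood above the filter value, and the gene entered the test through them alone. Its difference was 5.28 ± 0.18 under arsenate (limma adjusted p = 8.2e-07) and 0.02 without it (adjusted p = 0.97), and the 2 differences differed from each other by 5.26 ± 0.25 (adjusted p = 0.00019). The log2 size depends on the constant, and was 6.57 with one at the 5th percentile of signals and 3.55 at the 50th. With no filter the adjusted p was 7e-06, and 0.0023 for the difference between the contrasts.

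OsSWEET12, on chromosome 3, showed the opposite order. It read 983.1, 646.9 and 419.4 in Azucena arsenate and 7.3, 7.1 and 6.1 in Bala arsenate, with every control array at or below 7.0. The arsenate arrays of the varieties did not overlap, and the difference was -6.18 ± 0.37 (adjusted p = 9.9e-06) against -0.08 without arsenate, a difference of -6.10 between the contrasts (adjusted p = 0.0083). It passed the filter through the Azucena arsenate arrays alone, and with no filter these p-values were 3.6e-05 and 0.031. OsSWEET16 was lower in Bala as well (-1.46 ± 0.36, adjusted p = 0.029), and that call was lost without Azucena arsenate 1 or 3 or Bala arsenate 1 or 2 (adjusted p up to 0.136), and without the block (0.072) or the filter (0.072). Of 13 tested SWEET and sucrose transporters, 1 (7.69%) was higher and 2 (15.4%) were lower, beside 4.82% and 6.65% of all genes. The median of the list was 0.01. The list held 2 higher genes without Azucena arsenate 3 or Bala arsenate 3. OsSWEET16 differed by -0.72 with the constant at the 50th percentile, and both its groups lay near or below the filter value.

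Rice roots take up iron both as the free ion, through IRT transporters, and as a complex with the chelator deoxymugineic acid, through YSL transporters. Of 18 tested iron acquisition genes 5 (27.8%) were higher in Bala under arsenate and 0 lower, beside 4.82% and 6.65% of all genes, with a median of 0.61, and 16 had a positive difference. Without arsenate 0 were higher by limma (2 at an unadjusted p under 0.05) and OsYSL14 was lower, beside 5.13% and 7.04% of all genes. No member passed the test of the difference between the contrasts, although 5 had an unadjusted p under 0.05 for it.

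OsIRT2, an iron transporter on chromosome 3, read 478.2, 431.8 and 297.1 in Bala arsenate and 22.9, 23.1 and 20.3 in Azucena arsenate, a 16.4-fold difference (log2 4.04 ± 0.49, adjusted p = 0.00063). The control arrays of both varieties stayed between 1.2 and 13.1. The contrasts differed by 4.66 (adjusted p = 0.059), short of the threshold. osysl15, which carries iron bound to deoxymugineic acid, read 789.2, 514.4 and 926.8 in Bala and 27.6, 35.3 and 87.4 in Azucena (3.97 ± 0.86, adjusted p = 0.015). In Bala control, array 3 alone read 1580 for osysl15 against 46.1 and 35.9 in the other arrays.

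osysl6, known as a transporter of manganese bound to nicotianamine, was 2072.5, 2096.5 and 2077.3 in Bala and 669, 573.8 and 930.2 in Azucena (1.55 ± 0.21, adjusted p = 0.0012). Every Bala array lay above every Azucena array. IRO3, a transcription factor that restrains the iron deficiency response, was higher by 1.71 ± 0.44 (adjusted p = 0.035), and osysl9 by 0.96 ± 0.21 (adjusted p = 0.015). OsIRT1 (2.16 ± 0.69, adjusted p = 0.079) and OsNramp1 (1.61 ± 0.76, adjusted p = 0.23) did not pass, nor did the chelator synthesis genes OsNAS1, OsNAS2 and OsNAAT1 (0.48, 0.52 and 0.70). The number of higher iron genes was 2 without Azucena arsenate 1 or Bala arsenate 1, and 3 without Azucena arsenate 3 or Bala arsenate 2. osysl15 was lost without Azucena arsenate 1 or 3 or Bala arsenate 1 or 2 (adjusted p up to 0.074) and without the block (0.059), osysl9 without Azucena arsenate 1 or Bala arsenate 1 or 3 (up to 0.075), and IRO3 without any of 8 single arrays (up to 0.134). It was 3 as well without the filter or with arrays centred on their medians.

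Among 30 tested transporters of other metals, 8 (26.7%) were higher and 1 (3.33%) was lower in Bala under arsenate, beside 4.82% and 6.65% of all genes. The median was 0.19. Without arsenate 0 were higher and 1 was lower by limma, beside 5.13% and 7.04% of all genes. At an unadjusted p under 0.05, 10 were higher under arsenate and 4 without it. OsNramp5, the main root importer of manganese and cadmium, read 309.3, 156.2 and 438.3 in Bala and 58.3, 34.1 and 68.9 in Azucena (2.38 ± 0.21, adjusted p = 8.9e-05). The groups did not overlap, and both lay below every control array, of which the lowest was 704.4. OsCOPT1, a copper importer on chromosome 1, read 1074.9, 1461.9 and 1389.3 in Bala and 55.3, 61.7 and 219.7 in Azucena, a 13.9-fold difference (3.80 ± 0.36, adjusted p = 0.00013). Its control means were 3325 ± 867 in Bala and 2375 ± 841 in Azucena (SD, n = 3), so Azucena arsenate was the only group below 1000 on every array. The contrasts differed by 3.29 for OsCOPT1 (adjusted p = 0.063) and by 1.67 for OsNramp5 (adjusted p = 0.084).

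OsZIP1, of the zinc and iron transporter family, had a mean of 71.2 ± 40.2 in Bala arsenate and 20.7 ± 9.15 in Azucena arsenate (1.63 ± 0.33, adjusted p = 0.011), beside 1756 ± 968 and 1737 ± 131 in the controls. Both arsenate groups thus stood far below both control groups, with Bala the higher of the pair. NRAMP4, on chromosome 1 and by its symbol of the same family as OsNramp5, was higher by 1.55 ± 0.29 (adjusted p = 0.0073). OsHMA4, a pump that moves copper into the vacuole, was higher by 0.93 ± 0.22, OsZIP6 by 0.91 ± 0.22, OsCOPT5.1 by 0.75 ± 0.18 and OsZIP2 by 1.18 ± 0.32. OsZIP4, a zinc transporter, was lower by -0.81 ± 0.23 (adjusted p = 0.049), its arrays overlapping, and by -2.50 without arsenate (adjusted p = 0.00011).

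Without Azucena arsenate 1 or 2 or Bala arsenate 1 or 2, the higher metal transporters numbered 4, as they did without the filter or with arrays centred on their medians. OsZIP4 was then not called, nor was it without 5 other arrays (adjusted p up to 0.203). The calls of OsHMA4, OsZIP6, OsCOPT5.1 and OsZIP2 were each lost without at least 4 of the 12 arrays (adjusted p up to 0.104, 0.113, 0.106 and 0.18), and that of OsZIP1 without Azucena arsenate 1 (0.056). OsZIP2 was 0.73 without Azucena arsenate 1. The calls of OsZIP2 and OsZIP4 were also lost without the block (0.076 and 0.247). OsNramp5, OsIRT2, osysl6 and OsCOPT1 kept their calls without any single array. NRAMP4 did too, but lost its call without the block (0.078) and with only the 6 arrays compared (0.053).

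**Figure D2:**
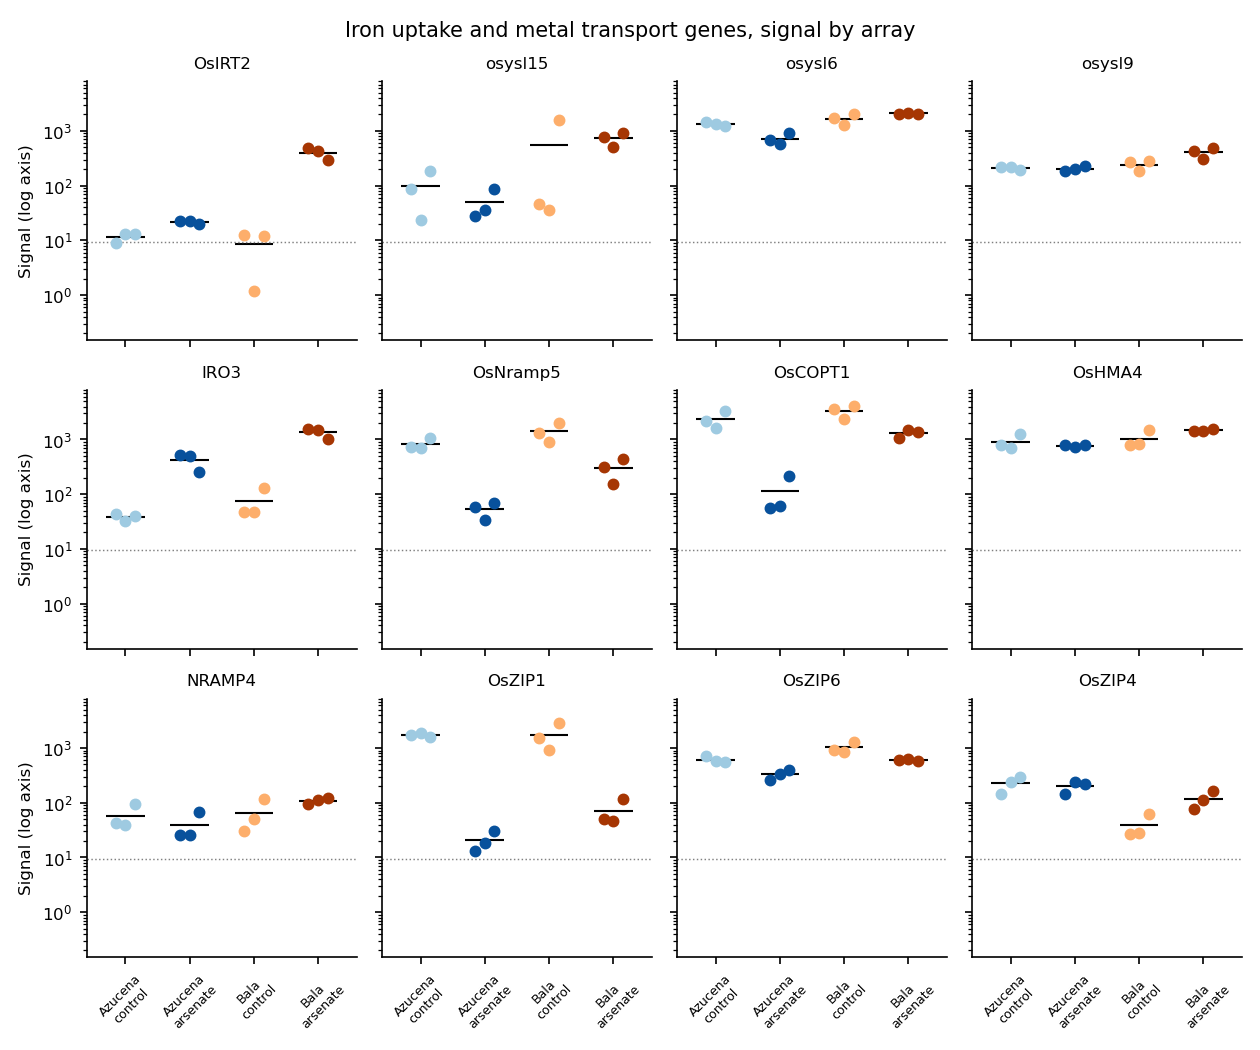
Signal (log axis) of 5 iron acquisition genes and 7 metal transporters on each array, with dots for arrays, bars for group means and a dotted line at the filter value of 9.4. OsIRT2 stands out in Bala arsenate (297.1 to 478.2), whereas OsCOPT1 and OsNramp5 are lowest in Azucena arsenate (means of 112 and 53.8).

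Of the 5 silicon and arsenic genes 1 (20%) passed the test as higher, beside 4.82% of all genes. Lsi6, a silicon channel, was higher in Bala (708.2, 785.4 and 465.1 against 195.7, 220.4 and 351.9). That difference was 1.36 ± 0.32 (adjusted p = 0.024) and was lost without Azucena arsenate 1 or 2 or Bala arsenate 1 or 2 (up to 0.111). Its probe set can match several transcripts. Lsi1, the influx channel of silicon and arsenite, differed by 0.05 ± 0.37 (adjusted p = 0.95), and Lsi2, the exporter, by -0.26 ± 0.43 (adjusted p = 0.77), each with overlapping arrays. The arsenate reductase genes OsACR2.1 (0.31 ± 0.18, adjusted p = 0.32) and OsACR2.2 (-0.17 ± 0.15, adjusted p = 0.55) did not pass either.

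The phosphate transporters OsPht1;1 (0.12 ± 0.28), OsPht1;2 (0.56 ± 0.43) and OsPht1;8 (-0.23 ± 0.55), of the family through which arsenate enters, did not pass, at adjusted p of 0.84, 0.47 and 0.85. Of 21 tested genes of phosphate transport and starvation, OsSPX2, an SPX-domain protein of phosphate signalling, was higher (301.3, 113.1 and 242.2 against 40.9, 41.3 and 58.1) and 0 were lower. The 1 higher gene was 4.76% of the list, near the 4.82% of all genes, of which 6.65% were lower. OsSPX2 differed by 2.08 ± 0.39 (adjusted p = 0.0077), and the list's median was 0.12. Without Azucena arsenate 3, Bala arsenate 3 or Bala control 1 or 3 the list had 2 higher genes.

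gcs, the enzyme that makes the first bond of glutathione, was lower in Bala. It read 1418.9, 1509.6 and 1671.8 in Bala arsenate and 3009.4, 2955.4 and 2884.3 in Azucena arsenate, without overlap (-0.95 ± 0.17, adjusted p = 0.0060). With only the 6 arrays compared the adjusted p was 0.055. Without arsenate it was also lower, by -0.63 (adjusted p = 0.042), with means of 655 ± 139 and 1002 ± 118. The probe set of gcs can match several transcripts, and both other tested probe sets of gcs had the same call. gcs was 14.3% of the 7 tested sulfur assimilation genes, beside the 6.65% of all genes that were lower. None of the other 6 sulfur assimilation genes passed, nor did any of 6 glutathione S-transferases by limma, of which 3 had an unadjusted p under 0.05. Without Bala control 3, a second sulfur gene was lower. Of 7 metallothioneins OsMT-I-2a (14.3%) was higher (1.52 ± 0.34, adjusted p = 0.018) and 0 were lower, beside 4.82% and 6.65% of all genes. That call was lost without Azucena arsenate 1 or 2 or Bala arsenate 1 or 2 (up to 0.088), another probe set of the gene had the opposite call, and the list had 3 higher genes without Azucena arsenate 3.

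Of 32 tested thioredoxins and glutaredoxins, small proteins that reduce disulfide bonds, 2 (6.25%) were higher and 4 (12.5%) lower. The shares of all genes were 4.82% and 6.65%. GRXS1, a glutaredoxin on chromosome 1, read 570.5, 565.7 and 517.9 in Azucena and 22, 30.5 and 32.9 in Bala, an 18.3-fold difference (-4.20 ± 0.19, adjusted p = 3.3e-06). The control arrays held the same order, at 349.5 to 411.8 and 23.6 to 26.9. OsTrx18 was lower by -1.70 ± 0.26 (adjusted p = 0.0025) and OsTrxm5 higher by 2.58 ± 0.54 (adjusted p = 0.013, lost without Bala arsenate 1 or 2, up to 0.062). GRXS3 was lower by -1.04 ± 0.22 under arsenate and higher by 1.15 without it, and its contrasts differed by -2.19 (adjusted p = 0.051). Without Bala arsenate 1, where GRXS3 was lost (0.076), the list had 0 higher and 2 lower genes, and without Bala arsenate 2 it had 0 and 3. Of 22 antioxidant enzymes, 3 (13.6%) were lower and 1 (4.55%) was higher, beside 6.65% and 4.82% of all genes. PRX112, a peroxidase, differed by -2.67 ± 0.32 (adjusted p = 0.00056), and CAT-B, a catalase, by 0.82 ± 0.17 (adjusted p = 0.012). Without Azucena arsenate 1 or 2 or Bala arsenate 1 or 2, CAT-B was lost (up to 0.074) and PRX112 was the only lower antioxidant gene.

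**Figure D3:**
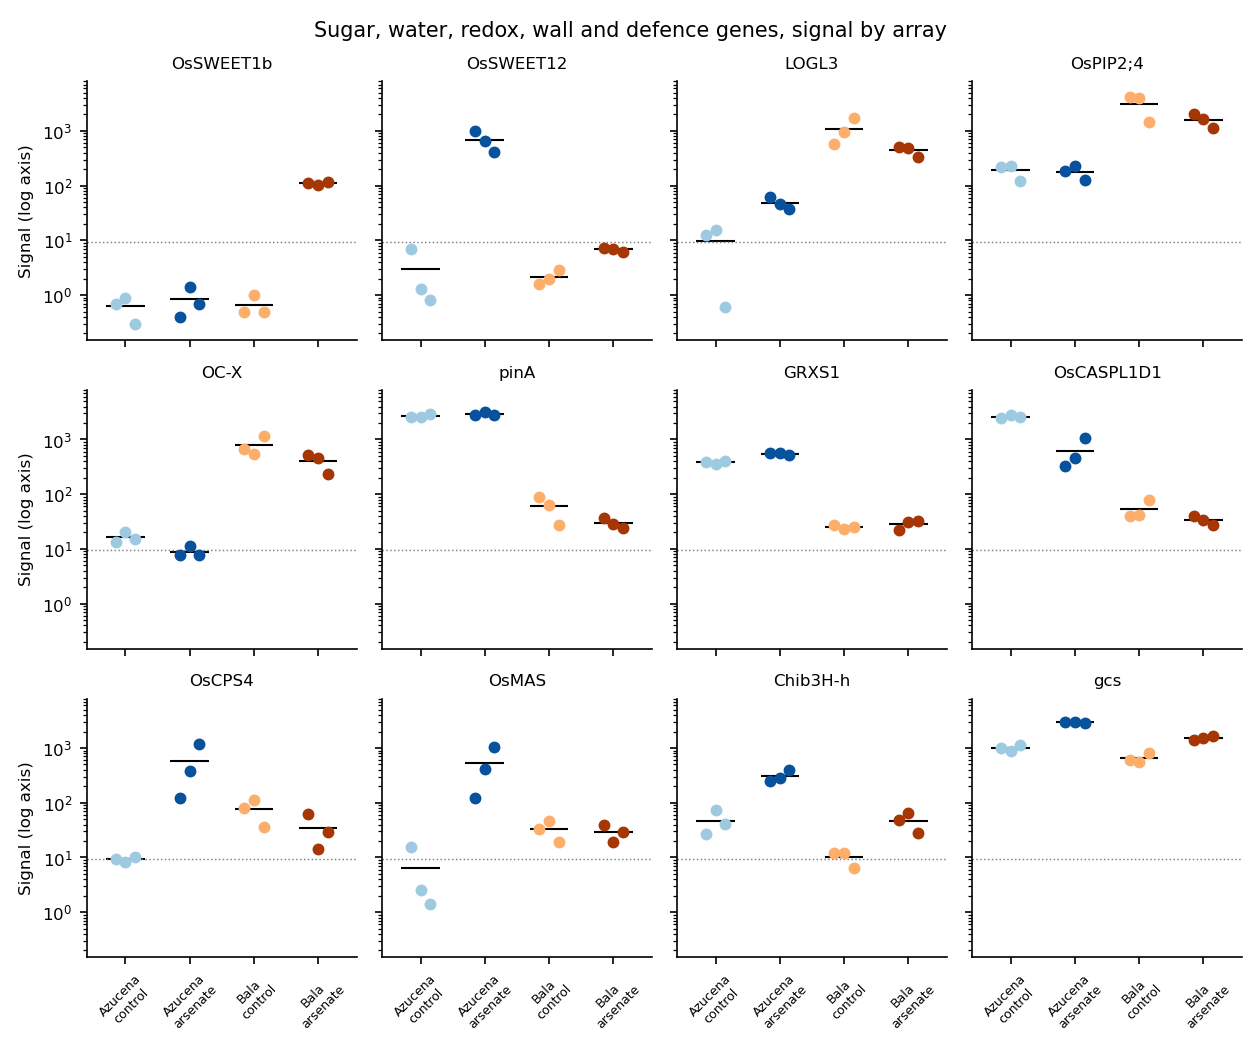
Signal (log axis) of 12 genes on each array, with dots for arrays, bars for group means and a dotted line at 9.4. OsSWEET1b and OsSWEET12 read high in 1 group each, OC-X, OsPIP2;4, pinA and GRXS1 keep the order of the varieties in both conditions, and OsCPS4 and OsMAS are highest in Azucena arsenate with a wide spread (123.8 to 1207.6 and 121.2 to 1029.9).

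Several named genes held a fixed order of the varieties in both conditions. OsPIP2;4, a water channel of the plasma membrane, read 2007.9, 1666.5 and 1117.9 in Bala arsenate and 184.6, 232.3 and 126.3 in Azucena arsenate (3.13 ± 0.22, adjusted p = 2.2e-05), and differed by 3.95 without arsenate. OC-X, on chromosome 4, read 521, 465.5 and 235.8 in Bala and 7.9, 11.1 and 7.7 in Azucena (5.15 ± 0.37, adjusted p = 2.6e-05), and pinA, on chromosome 1, read 37.2, 29 and 24.6 in Bala and 2854.4, 3204.6 and 2821.8 in Azucena (-6.53 ± 0.32, adjusted p = 4.4e-06). No array of 1 variety overlapped the other in these 3 genes, which were named for their differences on the same arrays. Others lower in Bala in both conditions were APG8D (-4.22 ± 0.18), of the ATG8 family of autophagy proteins, H2B.10 (-4.10 ± 0.27), a histone, XB3 (-3.34 ± 0.44), a ubiquitin ligase that binds the immune receptor XA21, and OsCASPL1D1 (-3.95 ± 0.37), a relative of the proteins that place the Casparian strip. H2B.10 was below the filter value on every Bala array, and its difference was -2.49 with the constant at the 50th percentile.

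Of the named genes higher in Bala by the most, OsSUS3, a sucrose synthase, read 96.4, 84 and 91.5 in Bala arsenate and 4.9, 7.1 and 14 in Azucena arsenate (3.19 ± 0.52, adjusted p = 0.0034), and its controls were all below 20. The contrasts differed by 3.34 for it (adjusted p = 0.13). HIRL2 (3.18 ± 0.30), OsBURP10 (3.37 ± 0.33) and OsBURP16 (3.53 ± 0.60) were higher in both conditions, and OsBURP10 was 1.78 with the constant at the 50th percentile. ALDP, a plastid aldolase, was higher by 3.68 ± 1.02 (adjusted p = 0.046). It read 71.5, 16.1 and 525.3 in Bala, highest in the array with the highest green marker sum, and its call was lost without any of 8 single arrays (up to 0.159) and without the block (0.072).

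Cytokinins are hormones that, in roots, slow cell division and shape branching. Of 28 tested cytokinin genes 4 (14.3%) were higher and 0 lower in Bala under arsenate, beside 4.82% and 6.65% of all genes, with a median of 0.20, and at an unadjusted p under 0.05 the counts were 10 and 0. LOGL3, of the enzymes that release active cytokinin, read 514.4, 486.2 and 328.9 in Bala and 61.1, 46.2 and 38 in Azucena (3.14 ± 0.64, adjusted p = 0.011), and differed by 6.80 without arsenate. The response regulators OsRRB4 (0.71 ± 0.15), OsRRB5 (0.64 ± 0.17) and OsRR6 (0.88 ± 0.24) were higher by less. The list's count was 0 without Azucena arsenate 2 or Bala arsenate 1, 1 without Azucena arsenate 1, and 2 without Azucena control 2 or 3 or Bala control 2. LOGL3 was lost without Azucena arsenate 2 or Bala arsenate 1 (up to 0.056). It was also 1 without the filter or with arrays centred on their medians.

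Rice defends itself with diterpenoid phytoalexins, the momilactones and phytocassanes, whose genes lie partly in a cluster on chromosome 4, and with chitinases that cut fungal walls. All 11 tested phytoalexin genes had a negative difference under arsenate, 3 (27.3%) passed as lower and 0 as higher, beside 6.65% and 4.82% of all genes, and the median was -1.54. At an unadjusted p under 0.05, 7 were lower and 0 higher. Only 1 of 9 tested genes was lower once probe sets that can match several transcripts were left out. The count was 1 of 11 with only the 6 arrays compared. Without arsenate 4 passed as higher and 1 as lower, beside 5.13% and 7.04% of all genes, and the median was 2.35. OsCPS4, which makes the diterpene backbone of momilactones, read 123.8, 375.8 and 1207.6 in Azucena arsenate and 62.4, 14.2 and 29.1 in Bala arsenate (-3.59 ± 0.81, adjusted p = 0.018). OsMAS, momilactone A synthase, read 121.2, 421.4 and 1029.9 in Azucena and 39.1, 19.3 and 29.3 in Bala (-3.64 ± 0.83, adjusted p = 0.020). The Azucena arrays spread widely in both genes. No array of 1 variety overlapped the other, in genes that were named for their difference on these same arrays.

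CYP99A2, a P450 of the same cluster, did not differ under arsenate (-0.88 ± 0.57, adjusted p = 0.38) but did without it, at 192, 393.1 and 124.9 in Bala and 7.4, 1.9 and 4.3 in Azucena. It was the list's only gene whose contrasts differed by the test (-5.98 ± 0.81, adjusted p = 0.049), a call lost without any of 10 single arrays (up to 0.158), without the filter (0.104), with the constant at the 5th percentile (0.082) and with the robust fit (0.058). The differences between contrasts were -5.88 for OsKO4, -6.24 for OsCPS4 and -5.99 for OsMAS, at adjusted p of 0.051, 0.091 and 0.11. The count of lower phytoalexin genes was 0 without Azucena arsenate 2 or Bala arsenate 2, 1 without Azucena arsenate 3 or Bala arsenate 1, and 4 without Azucena arsenate 1. OsCPS4 was lost without Azucena arsenate 2 or Bala arsenate 2 or 3 (up to 0.087) and with only the 6 arrays compared (0.088), OsMAS without 5 arsenate arrays (up to 0.088), and CYP76M8 (-2.02 ± 0.56, or -1.18 without Azucena arsenate 3) without 11 of the 12 arrays (up to 0.14).

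Of 12 tested pathogenesis-related proteins and chitinases, 4 (33.3%) were lower and 1 (8.33%) was higher under arsenate, beside 6.65% and 4.82% of all genes. Without arsenate 1 was lower and 5 were higher, beside 7.04% and 5.13% of all genes. Chib3H-h, of the class III chitinase family, read 249.5, 278.2 and 389.7 in Azucena and 48.4, 64 and 28.1 in Bala (-2.70 ± 0.36, adjusted p = 0.0011), and its neighbour chitinase(LOC4351188), also on chromosome 11, was lower by -2.75 ± 0.56 (adjusted p = 0.011). Cht11 was lower by -1.99 ± 0.36 (adjusted p = 0.0061) with control means of 24.3 ± 10.1 in Bala and 23.9 ± 10.1 in Azucena. Cht1 was lower by -4.01 ± 0.86, a call lost without Azucena arsenate 1 or 2 or Bala arsenate 1 or 2 (up to 0.07), and Chib3H-a was higher by 1.50 ± 0.32, a call lost without Azucena arsenate 2 or 3 or Bala arsenate 2 or 3 (up to 0.067). PBZ1, a PR10 protein, differed by -0.32 (adjusted p = 0.88) under arsenate and by 6.26 without it (adjusted p = 0.0028), and the contrasts did not differ by the test (adjusted p = 0.13).

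Of 6 tested WRKY factors, regulators of defence genes, 0 differed under arsenate by limma, nor at an unadjusted p under 0.05. The shares of all genes by limma were 4.82% higher and 6.65% lower. Without arsenate 4 were higher in Bala, OsWRKY24, OsWRKY62, OsWRKY71 and OsWRKY76, beside 5.13% of all genes. Their differences were -0.19, -0.82, 0.20 and -0.93 under arsenate and 2.57, 2.94, 2.44 and 3.52 without it, and no member's contrasts differed by the test, with 4 at an unadjusted p under 0.05. Among 32 jasmonate genes 2 (6.25%) were lower, near the 6.65% of all genes, and 0 were higher, beside 4.82% of all genes. LOC4347164, a JAZ repressor that the annotation lists as OsJAZ7 and OsJAZ8, read 219.7, 222.4 and 207.6 in Azucena and 3.3, 13.8 and 1.6 in Bala (-5.00 ± 0.40, adjusted p = 4.5e-05). LOX1.1, a lipoxygenase, was lower by -1.59 ± 0.40 (adjusted p = 0.030, lost without Azucena arsenate 1 or 2 or Bala arsenate 1 or 2, up to 0.133).

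**Figure D4:**
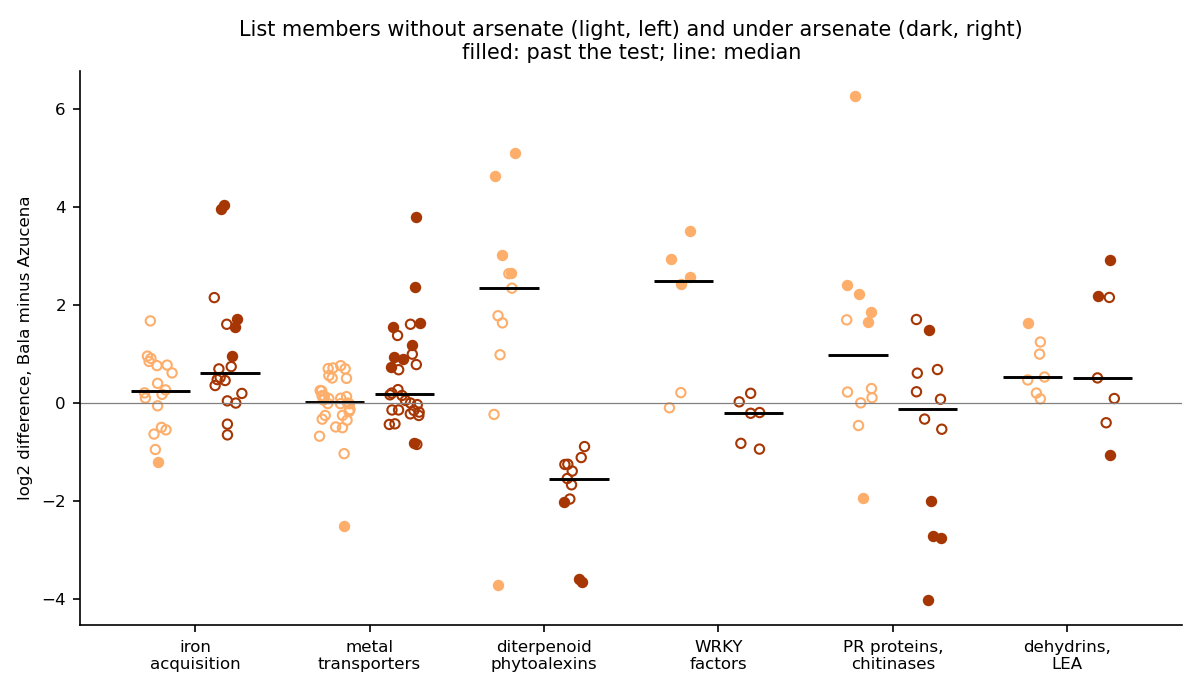
Bala minus Azucena difference (log2) of each member of 6 gene lists, without arsenate in light and under arsenate in dark, with filled dots past the test and bars at the medians. The 11 phytoalexin genes lie below 0 under arsenate (median -1.54) and mostly above 0 without it (median 2.35), and iron and metal transport genes reach 4.04 and 3.80 under arsenate.

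Dehydrins are hydrophilic proteins that build up in drying seeds and in water-stressed tissue. Of 7 tested dehydrin and LEA genes 2 (28.6%) were higher and 1 (14.3%) was lower, beside 4.82% and 6.65% of all genes. RAB16D read 1106.3, 1820.4 and 1539.4 in Bala and 417.1, 114.6 and 141.9 in Azucena (2.93 ± 0.53, adjusted p = 0.0059), and RAB21, of the same gene cluster on chromosome 11, was higher by 2.2 ± 0.58 (adjusted p = 0.037, lost without Azucena arsenate 2 or 3, Azucena control 2 or Bala arsenate 2 or 3, up to 0.159). OsDhn1 was lower, at 703.1, 734.9 and 546 against 1739.3, 1729.7 and 842.8 (-1.05 ± 0.20, adjusted p = 0.0071), a call lost without the block (0.113) and with only the 6 arrays compared (0.066). The remaining 4, LEA19 (0.52), Osem (2.16), RAB16B (0.10) and RAB16C (-0.40), did not pass, although RAB16B and RAB16C lie between RAB16D and RAB21 in the annotation. The list had 1 higher gene without Azucena arsenate 2 or 3, Azucena control 2 or Bala arsenate 2. It had 3 without Azucena arsenate 1 or Azucena control 1 or 3.

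Heat shock proteins refold damaged proteins. Of 51 tested heat shock proteins, chaperones and their factors 3 (5.88%) were higher and 0 lower, a share of higher genes near the 4.82% of all genes, with a median of 0.28, and at an unadjusted p under 0.05 the counts were 11 and 3. OsHsp16.0, a small heat shock protein, read 158.5, 477.9 and 35.1 in Bala and 0.9, 18.3 and 10.4 in Azucena (3.96 ± 0.72, adjusted p = 0.0062), and was also higher without arsenate (3.55, adjusted p = 0.011). With only the 6 arrays compared its adjusted p was 0.060. HSFA2D, a heat shock factor, was higher by 1.25 ± 0.26 and OsHsp23.2 by 1.74 ± 0.41. The count was 1 without Azucena arsenate 1 or Bala arsenate 2, 5 without Azucena control 1 and 7 without Bala arsenate 3. HSFA2D was lost without Azucena arsenate 1 or 2 or Bala arsenate 1 or 2 (up to 0.07), and OsHsp23.2 without Azucena arsenate 1 or 3 or Bala arsenate 2 or 3 (up to 0.108) or without the block (0.113).

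Of 55 genes of cell wall synthesis and expansion 3 (5.45%) were higher and 5 (9.09%) lower, near the 4.82% and 6.65% of all genes. OsCslC2, of the family that makes the glucan chain of xyloglucan, read 257.9, 240.9 and 320.2 in Bala and 47.3, 59.5 and 67 in Azucena (2.2 ± 0.20, adjusted p = 0.00012) and differed by 2.17 without arsenate. OsCslE1, a cellulose synthase-like gene, was lower by -4.35 ± 0.57 (adjusted p = 0.00093) with every Bala arsenate array below 5. OsCesA9, a cellulose synthase of secondary walls, was lower by -1.98 ± 0.42 (adjusted p = 0.013, lost without Bala arsenate 1 or 2, up to 0.066). The other 5 calls, OsCslD2, OsCslF2 and BC1 lower and OsCslD5 and OsEXP6 higher, were each lost without at least 4 single arrays (up to 0.141). The higher wall genes numbered 1 without Azucena arsenate 2 or Bala arsenate 1 or 2. The lower ones numbered 1 without Bala arsenate 2, 2 without Bala arsenate 1, 3 without any 1 Azucena arsenate array and 8 without Bala control 3.

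Genes with no symbol other than a locus number held the largest differences in each direction. LOC4328727, on chromosome 2, read 4253.5, 4967.8 and 5355 in Azucena and 3.7, 6.4 and 0.8 in Bala (-9.85 ± 0.65, adjusted p = 1.7e-05), and LOC4324311, on chromosome 1, read 389.8, 392.1 and 550.2 in Bala and 0.7, 0.8 and 0.7 in Azucena (7.28 ± 0.36, adjusted p = 4.8e-06). Both probe sets can match several transcripts, and both genes kept their order without arsenate (-9.01 and 6.46). The next were LOC4349255 (-7.97), LOC4325346 (-7.97), LOC4350213 (-7.67) and LOC4344270 (-7.52) among the lower genes, and LOC4340728 (7.06), LOC4346960 (7.03), LOC4350667 (6.55) and LOC4350802 (6.51) among the higher ones. All 10 passed without arsenate too, in the same direction. For 6 of the 10 the probe set can match several transcripts, and a second probe set of LOC4350802 had the opposite call.

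Some genes read above the filter value on all 3 arrays of 1 variety and below it on all 3 of the other. Under arsenate 205 genes (1.31% of those tested) did so in Azucena, of which 136 did so without arsenate as well, and 112 (0.716%) in Bala, of which 39 did so without arsenate.

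By chromosome, the share of tested genes that differed under arsenate ran from 8.36% on chromosome 2 to 20.8% on chromosome 11 (146 of 701 genes), followed by chromosome 12 (49 higher and 77 lower of 788 genes) and chromosome 7 (14.4%). On chromosome 6, which carries the cited tolerance gene, it was 10.4% (128 of 1229, with 59 higher and 69 lower), beside the 11.5% of all genes. Without arsenate the same chromosomes gave 20.1% on 11, 14.8% on 12 and 10.8% on 6.

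Genes that differed often lay beside each other. Of the called genes, 566 (31.5%) had a called gene as a direct neighbour among the tested genes, against 19.7% of the other genes, and 362 had one of the same direction. There were 8 runs of 4 or more neighbouring tested genes called in 1 direction, and all were lower in Bala. The runs held 35 genes, chosen as called lower on these arrays, of which 18 were below 9.4 on all 3 Bala arrays and 31 were also called lower without arsenate. Probe sets that can match several transcripts stood for 4 of the 35, and between 0 and 7 other protein-coding genes of the annotation lay within a run.

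The longest run held 6 genes on chromosome 12. LOC9272184 read 400.3, 457.5 and 525.7 in Azucena and 3.6, 1.8 and 2.4 in Bala (-6.63 ± 0.27, adjusted p = 2e-06), LOC4351904 differed by -2.83 ± 0.20, and the smallest difference was that of LOC4351903 (-1.27 ± 0.19). A run of 5 on chromosome 2 had no other protein-coding gene in between. There LOC4328398 read 613.1, 533.1 and 378.1 in Azucena and 0.8, 1.1 and 7.1 in Bala (-6.83 ± 0.39, adjusted p = 8.6e-06). LOC4328397 (-6.49), LOC4328399 (-4.84), LOC4328400 (-4.81) and LOC9266559 (-3.19) made up the rest, and all 5 were called without arsenate too.

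**Figure D5:**
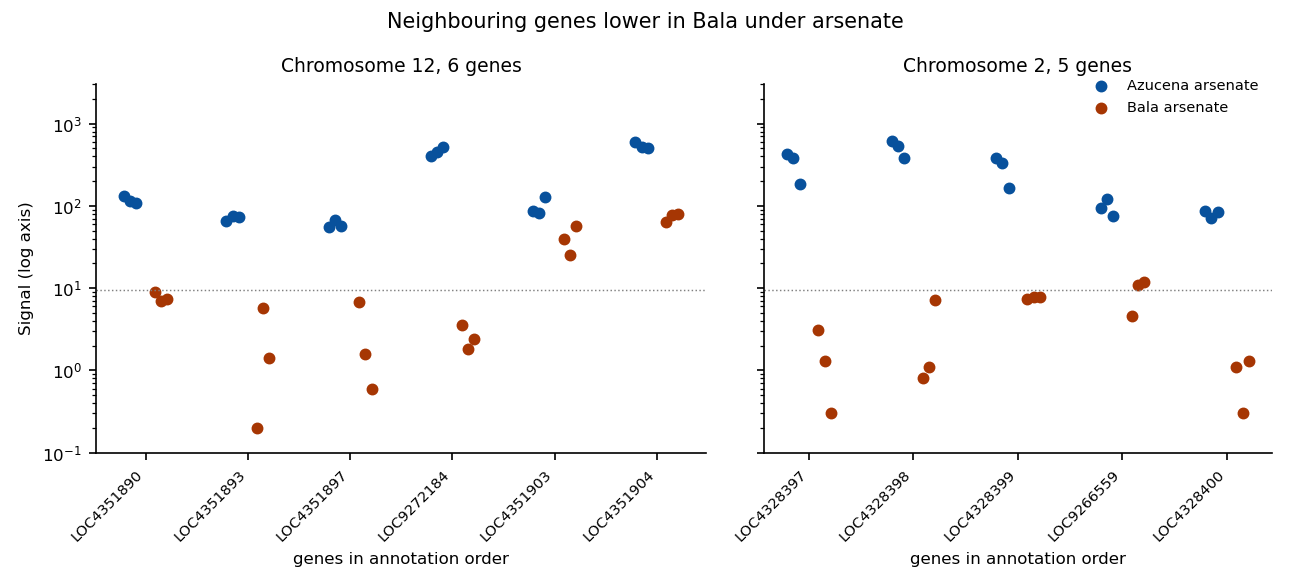
Signal (log axis) of the 6 neighbouring genes on chromosome 12 and the 5 on chromosome 2 on the Azucena arsenate (blue) and Bala arsenate (brown) arrays, in annotation order, with a dotted line at 9.4. Every Azucena dot lies above every Bala dot of the same gene, and 4 genes of each run lie below the line on all 3 Bala arrays.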

How the data were processed

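Expression was measured on 12 Affymetrix Rice Genome arrays. The intensity values are the signals that the authors deposited, made with MAS5 per the submitters' processing notes. Each array's trimmed mean was about 100.

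A value was log2(signal + 2.1), the constant being the 25th percentile of all signals. Probe sets with a mean signal over the 12 arrays above the 50th percentile (9.4) were tested, and 123 control sets were left out. R 4.3.3 and limma 3.58.1 fitted the means of the 4 groups over all 12 arrays with the experiment as a block, and p-values were adjusted with the Benjamini-Hochberg method over 28461 probe sets. Genes came from the platform annotation (before the filter, 22436 probe sets had 1 gene and 95 several). Symbols came through RefSeq's rice gene table of another assembly, and a gene was read from its brightest tested probe set. Of the 147 genes picked by the naming rules below, 87 were called under arsenate. Another tested probe set existed for 21 of these 87, and 12 had one with the same call. Among the 147, 3 had another probe set called in the opposite direction.

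The block follows the series' design, in which the replicates are separate experiments. Deviations from the group means correlated with r of -0.05, 0.16 and -0.06 between the arsenate arrays of the same experiment. Because 4 plants were pooled per array, the spread between plants was not measured. The block removed shifts shared by the arrays of an experiment, and p-values rest on the remaining spread, pooled over the 4 groups.

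The naming rules picked, per list, up to 4 members with the smallest p-values under arsenate. They also took the 12 symbol-named and 5 numbered genes with the largest differences in each direction. Further picks were up to 10 called genes whose contrasts differed and 9 genes of arsenic handling. Some picked genes are not named in the text, and the counts of named genes include them. Other members, markers and the genes of neighbour runs were named after their values were seen. Members and lists were chosen with earlier results of these data known. A lack of overlap in genes named for their difference follows partly from that choice and is not separate support. Some genes, such as Lsi6 and OsNramp1, are in more than 1 list. OsEME1 was taken out of the dehydrin list after its values were seen, since its symbol names an endonuclease.

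On simulated data of this design, the fit made 0 calls among unchanged genes, and it recovered 11 of 100 changed probe sets at a log2 difference of 1 and 68 of 100 at 2 under arsenate, with 4 false calls. For the difference between the contrasts it recovered 0 and 40 of 100, with 5 false calls. Alternatives changed the block, constant, filter, scaling, variance model, probe sets and arrays. No sequence was used here.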

Additional observations from a re-analysis of the deposited data

Results flagged for a closer look

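The variety difference under arsenate differed from that without arsenate in 11 genes by limma's interaction term, given here as the first minus the second. OsSWEET1b (5.26, adjusted p = 0.00019), LOC4344909 (4.45, adjusted p = 0.0085) and LOC9267438 (2.85, adjusted p = 0.018) were the positive ones. OsSWEET12 (-6.10, adjusted p = 0.0083) and CYP99A2 (-5.98, adjusted p = 0.049) led the negative ones.

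LOC4343962 (-4.30, adjusted p = 0.0032) read 570.6, 642.5 and 589.6 in Azucena arsenate and 11.8, 10.1 and 10.1 in Bala arsenate. LOC4326000 (-3.37, adjusted p = 0.024) read 314, 319.5 and 459 in Azucena arsenate, 66.4, 77.3 and 67 in Bala arsenate, 97.4, 57.7 and 108.2 in Azucena control and 142.9, 215.2 and 180.6 in Bala control, so the order of the varieties was turned. The other negative genes were LOC4334549 (-4.97, adjusted p = 0.041), LOC4339856 (-3.80, adjusted p = 0.045), LOC4326969 (-3.56, adjusted p = 0.024) and LOC4342259 (-2.74, adjusted p = 0.045).

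OsSWEET1b, OsSWEET12 and LOC4343962 kept this call without any single array. LOC4344909 lost it without 1 array, CYP99A2 without 10 and the other 6 without 5 to 10, and leaving out any 1 experiment ended the call in all 11.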

How the results depend on the processing

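No difference called under arsenate for a named gene changed sign under the alternatives run, while uncalled ones near 0, such as Lsi1 and OsPht1;1, did in some. Under arsenate 1794 genes passed, 1155 without the filter and 1097 with only the 6 arrays compared. Single arrays left out gave 1067 to 2011 genes and experiments left out 666 to 1961. Of the 3779 probe sets, 2484 were left with the filter at the 70th percentile, 2410 to 4138 without single arrays and 1653 to 4048 without experiments. Without arsenate 1903 genes passed, 1195 without the filter, 1121 to 2070 without single arrays and 698 to 1471 without experiments, and the 3914 probe sets became 2557 to 4184 and 1748 to 3080.

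The 11 genes whose contrasts differed became 7 and 63 with the constant at the 5th and 50th percentile, 4 without the filter, 27 with it at the 70th percentile, 31 with arrays centred on their medians, 33 with the trend model and 4 to 53 without single arrays. The 26 probe sets became 17, 138, 5, 56, 71, 64 and 5 to 97. Without any 1 experiment the count was 0, with 2114, 1461 and 4773 probe sets at an unadjusted p under 0.05. Without the replicate block 1732 genes (3616 probe sets) passed under arsenate, 1774 (3669) without it, and 23 (58) for the difference between the contrasts.

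Centring moved the median of all probe sets by about -0.10, and the share of calls that were higher in Bala from 42.0% to 32.6% under arsenate and from 42.1% to 54.9% without it. Of the 87 named genes called under arsenate, 36 lost the call without some single array, 47 without an experiment and 40 under no alternative run. The causes were not tested. Low signals limit the folds, and 3 arrays a group the calls of small differences.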

Other observations

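PIK6-NP, a resistance protein gene of the Pik locus on chromosome 11, read 20.3, 17.8 and 19.5 in Bala arsenate and 116.8, 104.8 and 71.9 in Azucena arsenate (-2.20, adjusted p = 0.00039). The difference was -2.21 without arsenate. It was the only one of 4 tested resistance genes to pass (25%, beside the 6.65% of all genes that were lower). It did so without any single array as well. Of 53 cell cycle and replication genes, KRP6, an inhibitor of cyclin-dependent kinases, was higher (1.69, adjusted p = 0.017) and CYCD5-3, a D-type cyclin, lower (-1.02, adjusted p = 0.032). Each was 1.89% of the list, below the 4.82% higher and 6.65% lower of all genes. KRP6 was lost without Azucena arsenate 2 or Bala arsenate 1 or 2 (up to 0.077) and CYCD5-3 without 6 single arrays (up to 0.144). The list held 4 higher genes without Bala control 3.

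Of 21 aquaporins, OsPIP2;4, Lsi6 and OsPIP2;6 (14.3%) were higher and OsPIP2;8 (4.76%) was lower, beside 4.82% and 6.65% of all genes. OsPIP2;6 (0.71) was lost without any of 10 single arrays and OsPIP2;8 (-1.24) without any of 5 and without the block (0.161). OsAKT1, the main inward potassium channel of roots, was the only one of 23 potassium genes to pass (1.24, adjusted p = 0.018, lost without Azucena arsenate 1 or 2 or Bala arsenate 1 or 2, up to 0.094). That 1 gene was 4.35% of the list, near the 4.82% of all genes. In the lists of 12 ABC transporters, 14 respiration and low oxygen genes, 8 gibberellin genes and 18 NAC and MYB factors, the calls were OsABCG50 (-1.51), OsABCI12 (0.75), OsSUS3 (3.19), FALDH (-0.61), OsKO2 (-0.91) and myb17 (1.04). Among them only OsSUS3 kept the call without any single array. Each of these calls was 5.56% to 12.5% of its list, beside 4.82% higher and 6.65% lower of all genes. None of 18 nitrogen genes, 8 germin-like genes or 9 ethylene genes passed by limma, and 2 of each list had an unadjusted p under 0.05.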
